A study of Mus musculus with 10 samples.

Results

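Radial migration genes were followed in the dorsal telencephalon, the embryonic tissue that forms the cerebral cortex, of mouse embryos at E14.5. The group held 10 genes chosen by name from the count tables, which list 43629 genes in all. They were the reelin receptor genes Vldlr and Lrp8, the reelin adaptor gene Dab1, the dynein regulator genes Pafah1b1 and Ndel1, the kinase gene Cdk5 with its activator gene Cdk5r1, and the cytoskeletal genes Dcx, Rnd2 and Filip1. RNA-seq had been performed on 5 control and 5 Dot1l-cKO samples of strain C57BL/6. Control embryos carried Dot1l-cKO f/+, so they held 1 floxed copy of Dot1l, and no Cre. Dot1l-cKO embryos carried Dot1l-cKO f/f and 1 copy of a Cre allele. Dot1l encodes a histone H3 lysine methyltransferase. No control carried the Cre allele, so effects of the Cre allele and of the loss of Dot1l cannot be told apart in this design.

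Newborn projection neurons of the cortex leave the ventricular zone, pass through a multipolar stage and climb along radial glia towards the surface. Reelin, a large glycoprotein secreted near the surface mainly by Cajal-Retzius cells, binds the receptors encoded by Vldlr and Lrp8. Binding leads Src family kinases to phosphorylate the adaptor encoded by Dab1, and mutants of this pathway have a disordered layering of the cortex. LIS1, the product of Pafah1b1, and the product of Ndel1 act with the motor dynein to pull the nucleus forward, while doublecortin, the product of Dcx, binds microtubules. Mutations of the human counterparts of Pafah1b1 and Dcx cause lissencephaly. Cdk5 needs an activator such as p35, the product of Cdk5r1, to phosphorylate cytoskeletal proteins. Rnd2, a small GTPase, and FILIP1, which binds filamin A and promotes its degradation, act on the actin cytoskeleton during the multipolar stage and the start of migration.

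Total counts ranged from 54202349 to 66556034 per sample. The column names of the deposited normalised tables open with a number that no source used here explains. It was 57 in replicates 2 and 3 of both groups. In these 4 samples, called header-57 samples from here on, the mitochondrial ribosomal RNA genes held 0.0471% to 0.492% of the counts, against 5.79% to 10.9% in the other 6. The tissue label was checked against Emx1, Emx2, Lhx2, Neurod6 and Tbr1. All 5 genes were detected in every sample, with a summed level of 1030 to 1130 CPM in controls, CPM being counts scaled to a library of 1e+06, and of 877 to 1080 in Dot1l-cKO. By edgeR, 1 of them was decreased, Lhx2, and 0 were increased (0 also at an unadjusted p under 0.05 and 0 by DESeq2). At an unadjusted p under 0.05, 3 of them were lower in Dot1l-cKO, and DESeq2 called 1 lower. Dot1l itself was at 31.4 to 41.5 CPM in controls. In Dot1l-cKO it was at 20.1 CPM in replicate 2 and at 39.6 to 51.7 CPM in the other replicates (log2 fold change 0.081, SE 0.20, adjusted p = 0.864). The tables give 1 count over the whole gene, and reads over the floxed segment are not separated, so this value does not check the deletion.

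Of the 10 migration genes, all of which were tested, 1 was increased in Dot1l-cKO and 0 were decreased, also at an unadjusted p under 0.05 and by DESeq2. The increased gene was Filip1, and 9 genes did not pass the test (edgeR's quasi-likelihood test, Benjamini-Hochberg adjusted p under 0.05). Among all 17039 genes tested, 7.11% were called in either direction and 5.67% were increased, so a count of 1 in 10 lies near the background. The CPM ranges of the groups did not overlap for 1 migration gene, again Filip1, and for 8.34% of all genes tested. The log2 fold change was negative for 7 migration genes and positive for 3. Its median was -0.041 over the migration genes and -0.0056 over all genes tested. The median absolute log2 fold change was 0.121 over the migration genes and 0.156 over all genes. For each of the 9 genes that were not called, the 95% interval of the change lay within 50% in either direction. In bulk tissue, fewer cells of a type and less RNA per cell cannot be told apart, and this holds for every difference given here.

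**Figure D1:**
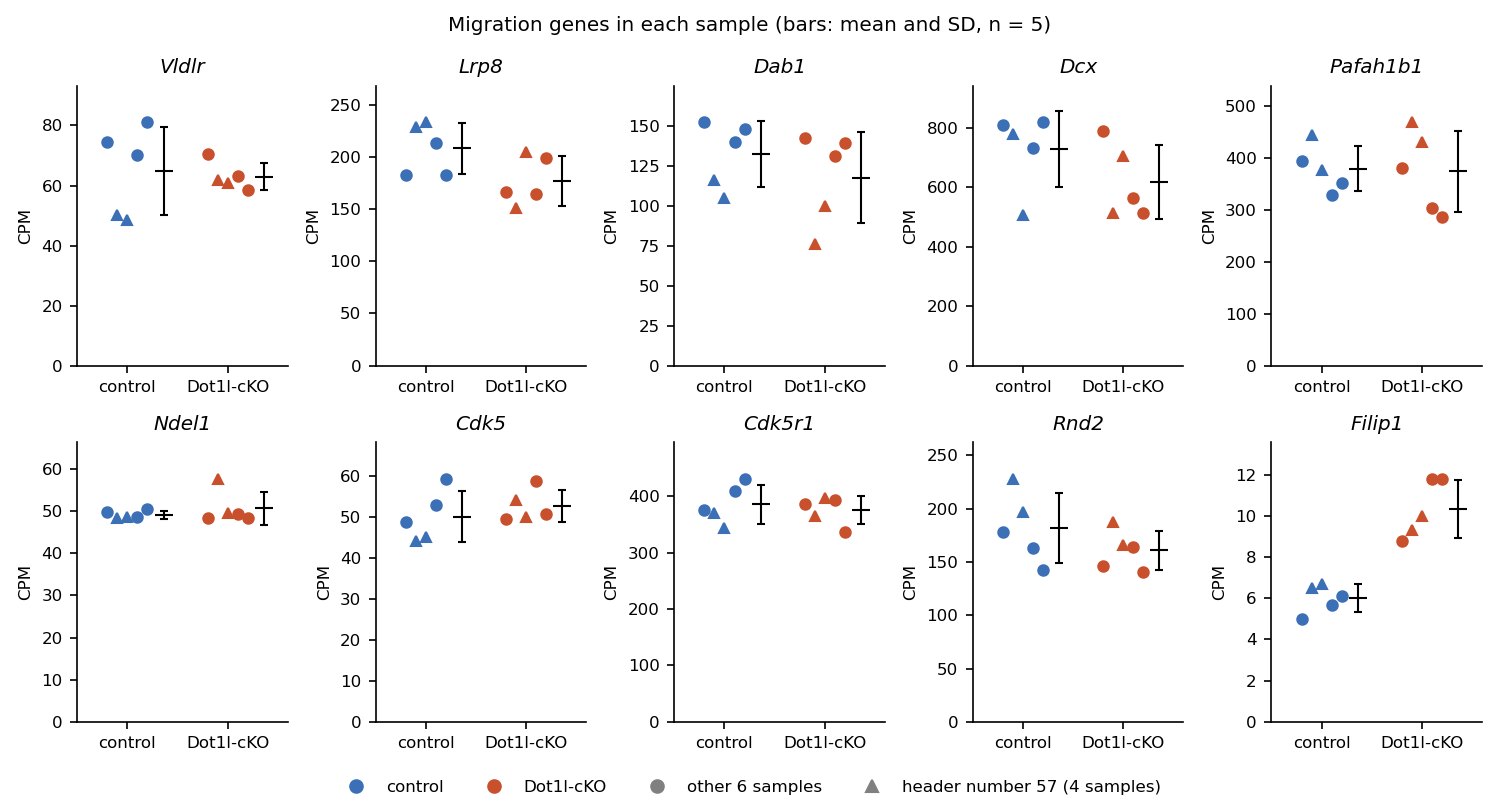
CPM of the 10 migration genes (vertical axes, each from 0) in 5 control and 5 Dot1l-cKO samples, with replicates 1 to 5 from left to right and bars for mean and SD. Filip1 lies between 4.99 and 6.68 CPM in controls and between 8.76 and 11.8 in the mutants, and the groups overlap in the other 9 panels.

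Filip1 (ENSMUSG00000034898, chr9:79815051-80012851, minus strand) encodes the filamin A interacting protein. Control replicates 1 to 5 held 4.99, 6.51, 6.68, 5.67 and 6.13 CPM of it, from 248 to 446 counts. Replicates 1 to 5 of Dot1l-cKO held 8.76, 9.31, 10, 11.8 and 11.8 CPM, from 464 to 783 counts. Every Dot1l-cKO sample was higher than every control. The mean was 5.99 ± 0.684 CPM in controls and 10.3 ± 1.42 CPM in the mutants (SD over 5 samples each). On the log2 scale Filip1 rose by 0.79 (SE 0.12, edgeR adjusted p = 0.00345). This is a 1.73-fold increase with a 95% interval of 1.43 to 2.09. The difference between the group means of log2 CPM was 0.55 within the header-57 samples, 2 against 2, and 0.94 within the other samples, 3 against 3. When each sample was left out in turn, Filip1 was called in 10 of 10 fits. It was the member with the fewest counts, and its level per kilobase of exon was the lowest of the group in both genotypes.

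Promoter windows of 250 bases before a RefSeq transcription start (assembly GRCm38.p6) were at hand for 7 of the 10 genes, namely Vldlr, Lrp8, Dab1, Dcx, Pafah1b1, Ndel1 and Filip1. For each gene the window nearest to the annotated gene start was read, which lay 18723 bases inside Ndel1 and at most 812 bases inside the others. The window of Filip1, the 1 gene called, is shown with those of Dcx and Pafah1b1. That of Dcx holds as few CpG dinucleotides, and that of Pafah1b1 holds the most. Capitals mark CpG dinucleotides. Filip1 lies at chr9:80012852-80013101, Dcx at chrX:143933220-143933469 and Pafah1b1 at chr11:74723859-74724108, all on the minus strand and written 5′ to 3′.
Filip1: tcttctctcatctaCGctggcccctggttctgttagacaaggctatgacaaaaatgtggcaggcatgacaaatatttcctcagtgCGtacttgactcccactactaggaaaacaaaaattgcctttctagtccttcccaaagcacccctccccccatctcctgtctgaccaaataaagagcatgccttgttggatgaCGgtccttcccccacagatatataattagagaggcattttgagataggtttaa
Dcx: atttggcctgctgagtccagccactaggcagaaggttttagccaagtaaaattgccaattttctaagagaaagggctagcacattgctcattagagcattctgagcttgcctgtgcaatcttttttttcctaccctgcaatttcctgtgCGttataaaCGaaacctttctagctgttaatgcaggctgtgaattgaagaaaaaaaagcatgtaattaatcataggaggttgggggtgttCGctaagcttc
Pafah1b1: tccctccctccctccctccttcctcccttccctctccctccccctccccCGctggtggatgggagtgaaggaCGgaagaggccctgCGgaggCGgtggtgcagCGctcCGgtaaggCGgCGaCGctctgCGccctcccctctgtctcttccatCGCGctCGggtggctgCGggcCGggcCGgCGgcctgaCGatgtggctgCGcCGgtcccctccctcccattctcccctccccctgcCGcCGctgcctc
Filip1 and Dcx held 3 CpG dinucleotides each and Pafah1b1 held 22. The other windows held 5 in Vldlr, 10 in Dab1, 18 in Lrp8 and 20 in Ndel1, and the median over all 32851 windows of this length was 6. A window with at most 3 was found in 37.8% of all windows. The GC content was 45.2% in Filip1, 41.6% in Dcx and 73.2% in Pafah1b1. The letters TAATTA, which read the same on both strands and are a core of many homeodomain binding sites, occurred once each in the windows of Filip1, Dcx and Vldlr and in 4.84% of all windows. The E-box letters CANNTG, also the same on both strands, were found in the windows of Dab1 and Ndel1 and in 66.2% of all windows. Of the genes with TAATTA in the window read, Filip1 was called and Dcx and Vldlr were not. The 7 genes had 15 windows in all, and these readings depend on the window taken. A Vldlr window 536 bases inside the gene held 18 CpG dinucleotides, 0 TAATTA and 3 CANNTG matches. The Filip1 windows further inside held 7, 6 and 3 CpG dinucleotides, 1, 0 and 0 TAATTA matches, and 3, 1 and 3 CANNTG matches. The other Dcx window also held 3 CpG dinucleotides and 1 TAATTA. The motifs were chosen with earlier results known, and a match is a description of the letters only.

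The reelin receptor genes were examined next. Vldlr (ENSMUSG00000024924, chr19:27216484-27254231, plus strand) was at 74.6, 50.1, 48.5, 70.2 and 81.0 CPM in controls, given from here on in the order of replicates 1 to 5. In Dot1l-cKO it was at 70.6, 61.8, 60.9, 63.2 and 58.4 CPM. The control values fell apart by header number, with both header-57 controls at or under 50.1 CPM and the other 3 at or above 70.2, while the Dot1l-cKO values ran from 58.4 to 70.6 CPM. Genotype made a log2 difference of -0.043 (SE 0.14, 95% interval -0.35 to 0.27, edgeR adjusted p = 0.901). Within the header-57 samples the difference was 0.32 and within the other samples -0.23, so the direction was not the same. Lrp8 (ENSMUSG00000028613, chr4:107802261-107876840, plus strand), which encodes the receptor also known as ApoER2, was at 183, 229, 233, 213 and 183 CPM in controls. In Dot1l-cKO it was at 166, 151, 205, 164 and 199 CPM. The lowest 3 values of the 10 were Dot1l-cKO samples and the highest 3 were controls, with an overlap between. The change was -15.0% with a 95% interval of -27.8% to 0.141% (log2 fold change -0.23, SE 0.11). The p-value was 0.0517 before and 0.248 after adjustment over all genes, so Lrp8 was not called. Its difference was negative within the header-57 samples (-0.39) and within the other samples (-0.13).

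Dab1 (ENSMUSG00000028519, chr4:103619359-104744844, plus strand) encodes the adaptor that passes the reelin signal on. It was at 152, 116, 105, 140 and 148 CPM in controls, and in Dot1l-cKO it was at 142, 75.9, 100, 131 and 139 CPM. In both genotypes the 2 header-57 samples were the lowest. Between genotypes its log2 fold change was -0.17 (SE 0.17, 95% interval -0.55 to 0.21, adjusted p = 0.637). Dab1 was lower in Dot1l-cKO than in the control of the same replicate number in 5 of 5 pairs. With the replicate number as a block it was not called either (log2 fold change -0.19, edgeR adjusted p = 0.217). The pairing by number, used here and below, is only a hint from the data, as no label explains the numbers. Header numbers matched between the groups for replicates 1, 4 and 5, while replicates 2 and 3 of both groups shared 57. Per kilobase of exon, Lrp8 stood at 19.8 CPM, Dab1 at 16.7 and Vldlr at 6.45 in controls, and at 16.8, 14.9 and 6.26 CPM in Dot1l-cKO, so the order of these 3 levels was the same in both.

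Reln, the ligand, is no member of the group but feeds its receptors. It was at 366, 483, 516, 363 and 579 CPM in controls, and in Dot1l-cKO at 517, 667, 844, 598 and 1080 CPM. Each Dot1l-cKO sample exceeded the control of the same replicate number, and the groups overlapped. Its log2 fold change was 0.68 (SE 0.20, edgeR adjusted p = 0.0704), which did not pass the test. With the replicate number as a block it was 0.66 (edgeR adjusted p = 0.00412), which did. The receptor and adaptor genes named above showed log2 fold changes of -0.043, -0.23 and -0.17 in the same samples. Of 18 further reelin pathway genes fixed as a list, Reln included, 0 were called in either direction by edgeR, while DESeq2 called 1, Reln, which was also the 1 gene at an unadjusted p under 0.05. The median log2 fold change of the list was -0.024. The list held the Src family kinase genes Fyn and Src, the Crk and Rap1 genes and the Cul5 branch that degrades the adaptor.

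The dynein regulators did not pass the test. Pafah1b1 (ENSMUSG00000020745, chr11:74673949-74724670, minus strand) was at 394, 445, 378, 330 and 353 CPM in controls. In Dot1l-cKO it was at 381, 469, 431, 305 and 287 CPM. The highest and the 2 lowest of the 10 values were Dot1l-cKO samples. Between genotypes the log2 difference was -0.021 (SE 0.14, 95% interval -0.33 to 0.29, adjusted p = 0.956). Ndel1 (ENSMUSG00000018736, chr11:68821434-68871858, minus strand) was at 49.7, 48.3, 48.6, 48.7 and 50.4 CPM in controls, a 1.04-fold range. In Dot1l-cKO it was at 48.5, 57.7, 49.5, 49.3 and 48.3 CPM, with replicate 2 above all other samples. Ndel1 had a log2 fold change of 0.044 (SE 0.064, 95% interval -0.096 to 0.18, adjusted p = 0.755). The SD of log2 CPM over the controls was 0.026 for Ndel1, and counting error alone at these depths gives 0.0267. Only 0.364% of all genes tested had a smaller SD among the controls. For Pafah1b1 the SD was 0.165 in controls and 0.307 in Dot1l-cKO, with a counting error of 0.00962.

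Of 16 further LIS1 and dynein genes, 1 was increased and 0 were decreased, with a median log2 fold change of -0.00074 (0 decreased by DESeq2 and 1 at an unadjusted p under 0.05). The increased gene was Dync1i1, which encodes a dynein intermediate chain abundant in neurons. Its values were 39.5, 33.9, 29.0, 46.6 and 52.3 CPM in controls, against 68.3, 63.1, 57.9, 79.8 and 61.0 CPM in Dot1l-cKO. The groups did not overlap, and the log2 fold change was 0.71 (SE 0.15, edgeR adjusted p = 0.0173).

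Cdk5 (ENSMUSG00000028969, chr5:24418241-24423530, minus strand) was at 48.8, 44.2, 45.1, 52.8 and 59.3 CPM in controls, and at 49.6, 54.2, 49.9, 58.8 and 50.6 CPM in the mutants. The highest sample was a control and the 3 lowest were controls, so the Dot1l-cKO values lay within the control range. For Cdk5 the log2 fold change was 0.074 (SE 0.091, 95% interval -0.13 to 0.27, adjusted p = 0.706). Cdk5r1 (ENSMUSG00000048895, chr11:80477023-80481184, plus strand) was at 376, 371, 343, 410 and 431 CPM in controls, and in Dot1l-cKO at 387, 365, 397, 394 and 337 CPM. The lowest sample was a Dot1l-cKO, the 2 highest were controls, and the ranges overlapped over most of their length. Cdk5r1 had a log2 fold change of -0.039 (SE 0.079, 95% interval -0.21 to 0.13, adjusted p = 0.827). Of 8 further Cdk5 partners and substrates, 0 were increased, also by DESeq2 and at an unadjusted p under 0.05, and 1 was decreased. The median log2 fold change of these 8 was -0.058. The decreased gene was Cdkn1b, which encodes the cell cycle inhibitor p27, a Cdk5 substrate. It was at 188, 206, 202, 168 and 159 CPM in controls, and in Dot1l-cKO at 144, 149, 160, 120 and 143 CPM. Control replicate 5 and Dot1l-cKO replicate 3 overlapped by a small margin. The log2 fold change of Cdkn1b was -0.37 (SE 0.098, edgeR adjusted p = 0.0452), and the call was lost in 8 of the 10 fits that left out a sample.

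Dcx (ENSMUSG00000031285, chrX:143855842-143933311, minus strand), the doublecortin gene, marks migrating and young neurons. It was at 808, 777, 506, 730 and 817 CPM in controls, and at 789, 513, 703, 562 and 512 CPM in the mutants. Control replicate 3 held the lowest of the 10 values, and 3 of the 5 Dot1l-cKO samples lay at or under 562 CPM. The change was -15.4% with a 95% interval of -33.4% to 7.56% (log2 fold change -0.24, SE 0.16, edgeR adjusted p = 0.441). Of 7 further microtubule genes of the doublecortin list, 0 were called in either direction by edgeR and 0 by DESeq2, with 1 at an unadjusted p under 0.05, and their median log2 fold change was -0.17.

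Rnd2 (ENSMUSG00000001313, chr11:101464999-101471853, plus strand) promotes the move out of the multipolar stage. Its exons overlap those of Vat1 on the opposite strand, and the counting used strand. It was at 178, 228, 197, 163 and 142 CPM in controls, and in Dot1l-cKO it stood at 146, 187, 166, 164 and 141 CPM. The 2 highest values were controls, and replicate 5 of each group held its lowest. Rnd2 had a log2 fold change of -0.17 (SE 0.13, 95% interval -0.45 to 0.10, edgeR adjusted p = 0.492). Of 11 further actin and multipolar transition genes, 0 were called in either direction by edgeR and 0 by DESeq2, with 1 at an unadjusted p under 0.05, and their median log2 fold change was 0.067. Srgap2, which encodes a protein that shapes membrane protrusions, averaged 133 ± 19.5 CPM over the controls and 96.6 ± 21.9 over the mutants (SD). The groups did not overlap. It was not called (log2 fold change -0.46, edgeR adjusted p = 0.135), but was with the replicate block (-0.49, edgeR adjusted p = 0.0282). Srgap2 was singled out after its values were seen.

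**Figure D2:**
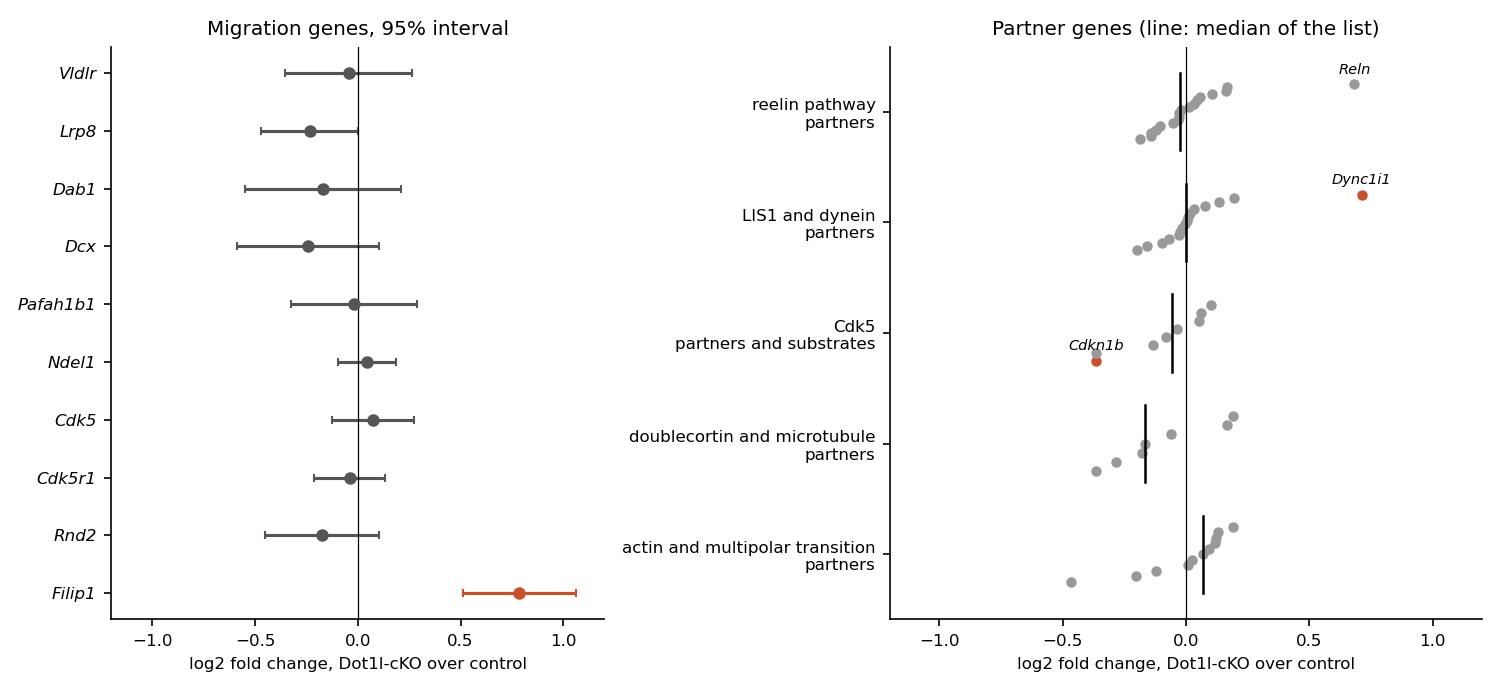
Log2 fold change of Dot1l-cKO over control (horizontal axes) for the 10 migration genes with 95% intervals (left) and for 60 partner genes in 5 lists (right), with genes called by edgeR in red and the median of each list as a line. Filip1, at 0.79, is the 1 migration gene in red, and Dync1i1 at 0.71 and Cdkn1b at -0.37 are the 2 partner genes in red.

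In all, 60 partner genes were tested, of which 1 was increased, 1 was decreased and 58 did not pass the test, beside the 7.11% called over all genes. Their median log2 fold change was -0.011. With the replicate number as a block, which called 9.41% of all genes tested, 4 partner genes were called, namely Reln, Dync1i1, Cdkn1b and Srgap2, with Reln and Dync1i1 higher and the other two lower in Dot1l-cKO.

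Dab1 and Rnd2, which were not called between genotypes, differed by header number. A fit with genotype and a term for the 4 header-57 samples against the other 6, added after the data were seen, called 2 of the 10 migration genes, beside 11.4% of all genes tested. Dab1 was lower in the header-57 samples by a log2 difference of -0.52 (SE 0.088, edgeR adjusted p = 0.00566). Rnd2 was higher by 0.32 (SE 0.086, edgeR adjusted p = 0.0396). Pafah1b1 at 0.34 and Vldlr at -0.33 were not called (edgeR adjusted p = 0.0581 and 0.074). The absolute header-number difference exceeded the absolute genotype difference in 7 of the 10 genes, and its median over the migration genes was 0.152, against 0.171 over all genes. For Filip1 the header-number difference was 0.038 (SE 0.13) and the genotype difference 0.79. Each genotype held 2 header-57 samples, so the number was balanced between the groups.

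**Figure D3:**
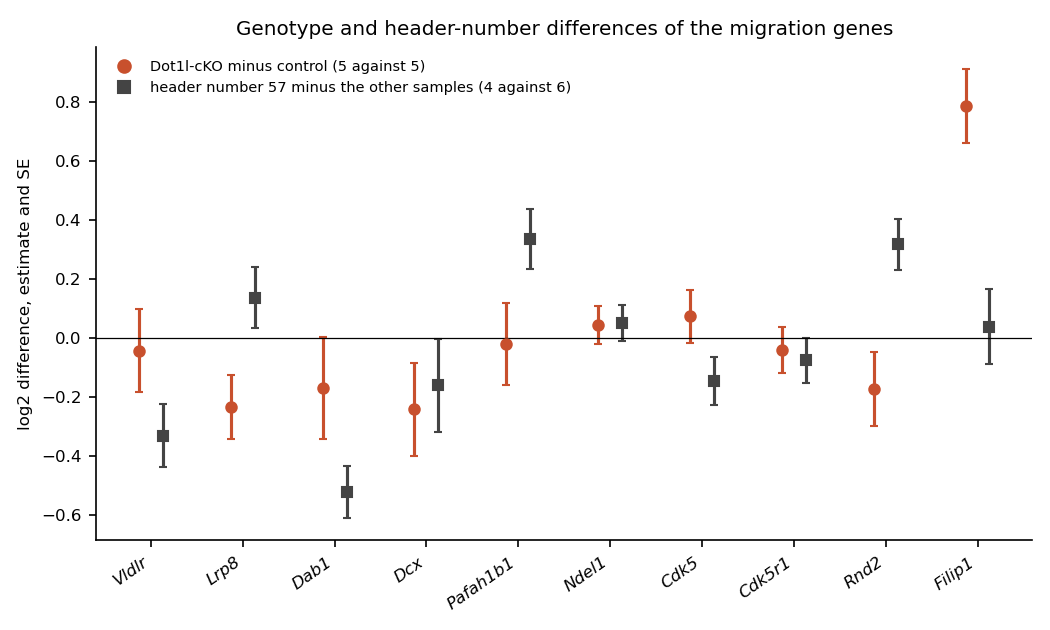
Log2 difference (vertical axis, estimate and SE) of each migration gene between genotypes (circles, 5 against 5) and between header-57 and other samples (squares, 4 against 6, fitted beside genotype). Filip1 is set apart by its genotype difference of 0.79, and Dab1, at -0.52, has the lowest header-number difference of the 10.

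Per kilobase of exon, the levels spanned from 92.8 CPM for Cdk5r1 to 1.18 CPM for Filip1 in controls. Rnd2 followed Cdk5r1 at 91.2 CPM, then Dcx at 57.5, Pafah1b1 at 39.5, Cdk5 at 23.1, Lrp8 at 19.8, Dab1 at 16.7, Ndel1 at 15.1 and Vldlr at 6.45. The samples of neighbours overlapped for Cdk5r1 and Rnd2, for Dcx and Pafah1b1, and along the run from Cdk5 through Lrp8 and Dab1 to Ndel1. In Dot1l-cKO the order of means differed only in that Ndel1, at 15.6 CPM, stood above Dab1, at 14.9 CPM, and these overlapped. Filip1 stood below all the others in both groups, at 2.03 CPM per kilobase in Dot1l-cKO, with no overlap with Vldlr at 6.26. Lengths were the union of all annotated exons of a gene, so a gene with long exons that are little used in this tissue reads low on this scale.

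**Figure D4:**
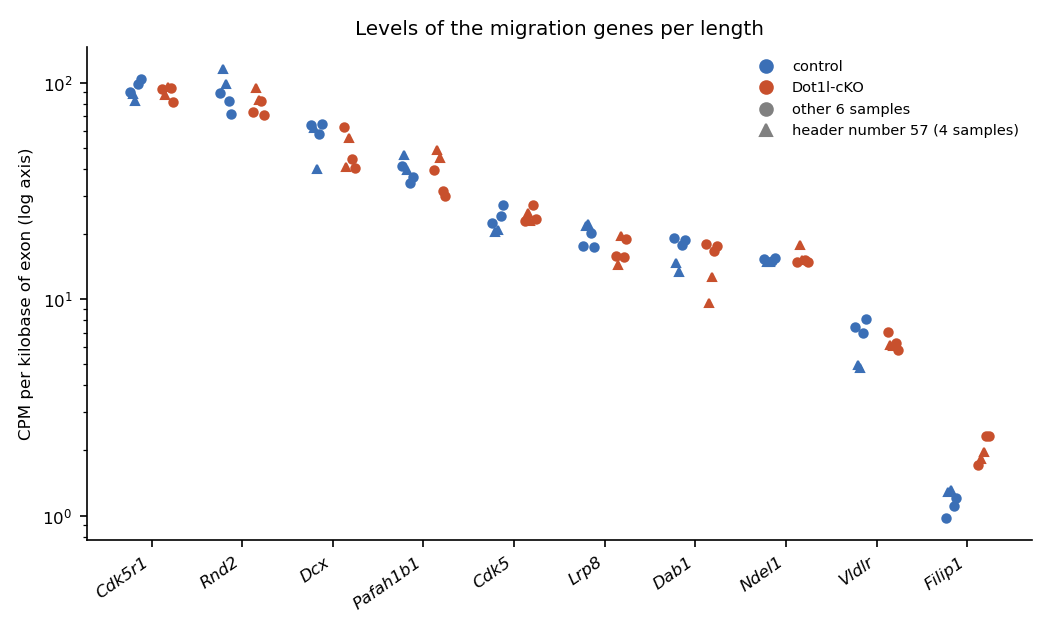
CPM per kilobase of exon (vertical log axis) of the 10 migration genes in every sample, ordered by the control mean. The genes run from 92.8 CPM for Cdk5r1 down to 1.18 CPM for Filip1 in controls, and Filip1 is the 1 gene whose groups do not overlap.

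Markers of cell types were read in the same samples. Of 8 neuronal markers, 1 was increased, Gap43, and their summed level was 1700 to 2560 CPM in controls and 2080 to 2760 in the mutants. Of 5 markers of excitatory cortical neurons, 0 were called by edgeR, 2 had an unadjusted p under 0.05, and DESeq2 called 1, Neurod2, higher. Of 5 markers of intermediate progenitors, 0 were called by edgeR or DESeq2 and 0 had an unadjusted p under 0.05. Of 8 radial glia markers, 3 were increased and 1 was decreased, while 5 had a negative log2 fold change and the median was -0.18. Their summed level did not overlap, at 2180 to 2700 CPM in controls and 2860 to 3200 in the mutants. Without Vim and Fabp7, which made up 54.6% of the sum in controls and 65.6% in Dot1l-cKO, it overlapped, at 904 to 1320 CPM against 929 to 1180 CPM. Cajal-Retzius markers, Reln among them, were increased in 4 of 7, with a sum of 411 to 631 CPM against 634 to 1210 CPM. Reln made up 89.4% of that sum in controls, and the other 6 markers summed to 47.6 to 65.0 CPM in controls and 95.2 to 130 CPM in Dot1l-cKO. Microglia markers were increased in 4 of 5, with a sum of 24.0 to 42.0 CPM against 47.4 to 70.7 CPM. Of 9 tested markers of interneurons and ventral cells, 2 were decreased and 0 were increased (0 also by DESeq2 and at an unadjusted p under 0.05). DESeq2 called 3 of them lower, and 8 were lower at an unadjusted p under 0.05. The log2 fold change was negative for all 9, with a median of -1.7. Their sum was 86.3 to 333 CPM against 23.6 to 101 CPM. The sums of the Cajal-Retzius, microglia and radial glia lists were higher in Dot1l-cKO, as Filip1 was. The Cajal-Retzius sum was higher also without Reln, while the radial glia sums overlapped without Vim and Fabp7. No marker of these lists was at 0 in any sample. The part of these cell types in the Filip1 and Reln differences was not tested. Of 6 striatal, 4 endothelial, 5 meningeal and 5 red blood cell markers, 0 were called by edgeR or DESeq2 and 0 had an unadjusted p under 0.05. The log2 fold change was negative for all 6 striatal markers (median -0.32) and positive for all 5 red blood cell markers (median 0.19). Striatal sums were 72.9 to 162 CPM in controls and 62.1 to 103 CPM in Dot1l-cKO. Endothelial sums were 97.3 to 183 against 89.6 to 217 CPM, and meningeal sums 14.7 to 393 against 20.1 to 364 CPM. Red blood cell sums were 437 to 1930 against 723 to 1720 CPM. With such spread within groups, 0 calls do not show equal content.

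**Figure D5:**
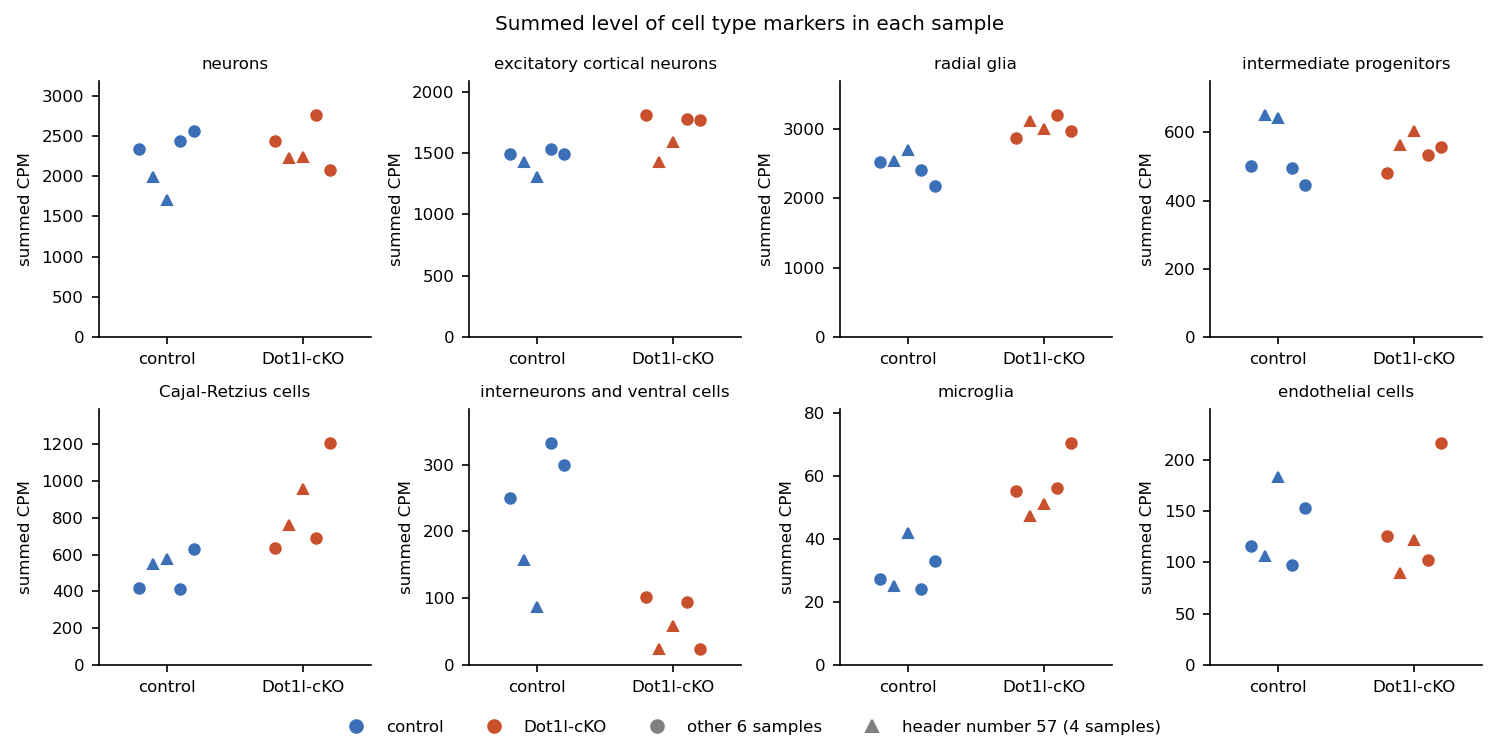
Summed CPM of cell type marker lists (vertical axes, each from 0) in 5 control and 5 Dot1l-cKO samples. The sums of Cajal-Retzius and microglia markers are higher in every Dot1l-cKO sample than in every control, as is that of radial glia markers, of which Vim and Fabp7 hold 65.6% in Dot1l-cKO and 5 of 8 have a negative log2 fold change. The sums of interneurons and ventral cells are lower in Dot1l-cKO with an overlap.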

How the data were processed

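Total RNA of mouse dorsal telencephalon was sequenced in 5 control and 5 Dot1l-cKO samples, grouped by their titles. Per the labels and the study's methods, the authors made stranded, ribosomal-RNA-depleted libraries, trimmed reads with Trim Galore 0.2.8, mapped them to mm10 with TopHat2 2.0.9 and counted genes with HTSeq 0.6.0. The deposited values are counts per gene and, in a second set of tables, a signal that equals these counts divided by the DESeq2 1.6.1 size factor of each sample. Of 43629 identifiers, 42548 were matched to a symbol of GENCODE (GRCm38), whose coordinates are used. The rest held 0.268% of all counts.

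The counts were tested with edgeR 4.0.16 in R 4.3.3 (filterByExpr, TMM, quasi-likelihood test, no covariate), with Benjamini-Hochberg adjustment over all genes tested. CPM are counts scaled by TMM-normalised library size. SE is the size of the log2 fold change divided by the square root of F. The script was tested on simulated data. The methods name DESeq2, which was an alternative (version 1.42.0). Others were DESeq2 size factors, other filters, blocks, sex, limma 3.58.1 on log2(signal + 1), a threshold of 0.01 and each sample left out. Sex was read from the counts of Y-linked genes, with more than 10 CPM taken as male. Control replicate 4 and Dot1l-cKO replicates 1 and 3 were read as male, so sex was not balanced between the groups. The 20 pairs of replicates differed by at least 30.8 chi-square per degree of freedom, so none was counted as a duplicate. Reads had no molecular identifiers, so count-based precision covers counting error only.

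Deviations from the group means correlated between same-numbered samples of the 2 groups by 0.229, 0.349, 0.145, 0.597 and 0.131 for replicates 1 to 5, all above 0.1, so the numbers of the titles were taken to pair the samples. The pairing comes from these correlations, since no label explains the numbers. Header numbers of the column names also matched between the groups, at 51, 90 and 154 for replicates 1, 4 and 5. Replicates 2 and 3 of both groups shared 57, so the header numbers do not tell their pairs apart. The pairing is a hint from the data: 2 of 5 controls and 3 of 5 Dot1l-cKO samples correlated best with their own number. Some samples of different number also passed 0.1, and they reached 0.446, so 0.1 does not set the pairs apart.

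The members and gene lists were chosen with earlier results of these data known. Named genes were all members, Dot1l, Reln, the called genes of each partner list (at most 4 in each direction) and at most 2 genes of a marker list, besides those of the tissue check. Srgap2, Neurog2, the markers named for their header-number difference and a few reelin pathway genes that describe their list were named outside this rule. Some items of the design and of the marker lists are not reported here.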

Additional observations from a re-analysis of the deposited data

Results flagged for a closer look

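Among 24 groups of 5 values examined, 3 held a sample far from the others, by the gap to its nearest neighbour as a share of the range, both on the log2 CPM scale. Chance gives about 1 in 20. Dcx in controls had such a share of 0.766, since replicate 3 stood at 506 CPM and the other controls at 730 to 817 CPM. Control replicate 3 also held the highest meningeal and red blood cell marker sums of all samples, 393 and 1930 CPM. Its neuronal marker sum, 1700 CPM, was the lowest. The part of this tissue content in its Dcx value was not tested. Ndel1 in Dot1l-cKO had such a share of 0.86, since replicate 2 stood at 57.7 CPM and the others at 48.3 to 49.5 CPM. Dot1l in Dot1l-cKO had such a share of 0.717, since replicate 2 stood at 20.1 CPM and the others at 39.6 to 51.7 CPM. On the CPM scale the shares were 0.722, 0.87 and 0.616, and the last would not stand out. Dot1l-cKO replicate 2 also held the smallest share of mitochondrial ribosomal RNA, 0.0471%. Without it the log2 fold change of Filip1 was 0.82 (edgeR adjusted p = 0.00585).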

How the results depend on the processing

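Filip1 was the 1 migration gene called in 20 of 21 alternatives, with log2 fold changes of 0.57 to 0.94. The exception was the fit within the header-57 samples, 2 against 2, where 0 migration genes and 0 partner genes were called, Filip1 had an adjusted p of 0.24, and edgeR called 1 gene of all those tested. Leaving out each sample in turn gave 1 to 1 migration genes, 1 to 2 partner genes and 750 to 1357 DE genes, against 1, 2 and 1212. The lowest gene count, 750, came without control replicate 1. DESeq2 called 2001 genes, the 6 other samples alone gave 745, and a threshold of 0.01 gave 495 genes and 0 partner genes. The fit with no filter and the fit with sex gave 1 partner gene each, and the replicate block, the header-number block and the header-57 term gave 4 each, with 1604, 1818 and 1790 DE genes in all. The last was chosen after seeing the data. The replicate block changed the calls of Reln and Srgap2 and of no migration gene (Filip1 0.78, adjusted p = 0.00753). DESeq2 called Reln (adjusted p = 0.023), and over the 21 alternatives its adjusted p ranged from 0.00343 to 0.223. Among the uncalled members the sign changed in 4 alternatives for Pafah1b1, 3 for Vldlr, 2 each for Ndel1 and Cdk5r1 and 1 for Cdk5, so no direction is given for them. Lrp8, Dab1, Dcx and Rnd2 stayed negative in all 21. Filip1 rests on 248 to 783 counts per sample, every other member on at least 2426.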

Other observations

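Ratios of counts within a sample do not depend on its depth. Lrp8 over Vldlr was 2.46, 4.57, 4.80, 3.03 and 2.25 in control replicates 1 to 5 and 2.35, 2.44, 3.36, 2.59 and 3.41 in Dot1l-cKO. The header-57 controls held the 2 highest ratios, and header-57 samples of Dot1l-cKO did not stand apart from the others. Cdk5r1 over Cdk5 varied less, from 7.28 to 8.39 in controls and from 6.65 to 7.96 in Dot1l-cKO. Here too, 3 Dot1l-cKO samples lay below every control. Dcx over Tubb3, a pan-neuronal tubulin gene, was 0.426 to 0.565 in controls and 0.292 to 0.482 in Dot1l-cKO, with 3 Dot1l-cKO samples below every control. None of these ratios was tested.

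Neurog2, a proneural gene of dorsal progenitors, was higher in the header-57 samples by a log2 difference of 0.46 (edgeR adjusted p = 0.0268), as Rnd2 was by 0.32. Between genotypes, Neurog2 showed a log2 fold change of 0.13 (edgeR adjusted p = 0.736). Neurog2 was singled out after its values were seen. The header-number difference was not particular to Neurog2 and Rnd2. Of the radial glia and intermediate progenitor markers, Nes (0.46), Insm1 (0.35), Eomes (0.31) and Sox2 (0.28) were also called higher, and the others were not called. Of the neuronal and excitatory neuron markers, Stmn2 (-0.38) and Tbr1 (-0.65) were called lower, Nefm (0.47) was called higher, and the others were not called.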
